A study of Mus musculus with 6 samples.

Results

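Mitochondrial ribosomal protein genes were followed in RNA-seq libraries of mouse aortic smooth muscle cells (MASMCs). They were chosen by annotation and not by their values, as the protein-coding genes whose symbol starts with Mrpl or Mrps and a digit. Of the 54532 deposited genes, 78 met this rule, and 77 of them had a mean level high enough to be tested, among 13423 tested genes. They encode 51 proteins of the large subunit, 26 of the small subunit and Mrps36, which carries a ribosomal symbol but is now known as a subunit of the alpha-ketoglutarate dehydrogenase complex. In libraries labelled Ad-PDK4, 16 of the 77 were higher than in Ad-Con, 7 were lower and 54 were not called, and none changed 2-fold. Calls were made for 29.9% of the 77, against 42.7% of all tested genes.

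The mitochondrial ribosome translates the 13 proteins encoded in mitochondrial DNA (mtDNA), all of them subunits of the oxidative phosphorylation (OXPHOS) complexes. Its 2 rRNAs are transcribed from mtDNA, whereas its proteins are nuclear gene products that are made in the cytosol and imported. Some of these proteins descend from bacterial ribosomal proteins and others were added during the evolution of mitochondria.

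The 6 libraries came from wild-type MASMCs transduced with an adenoviral vector, 3 with a control plasmid (Ad-Con) and 3 with an overexpression plasmid for pyruvate dehydrogenase kinase 4 (Ad-PDK4), a kinase that inhibits the pyruvate dehydrogenase complex. According to the study's text the cells were isolated from mouse aorta and both groups received angiotensin II, which the labels do not mention. The comparison addresses how PDK4 overexpression changes the transcriptome of these cells. The study describes the 3 libraries of a group as biological replicates, without saying how the cultures were kept apart, and the p-values measure the spread between them. The deposited unit was FPKM, fragments counted on a gene and scaled by its length and the library size. Recovered totals were 17588942 to 21861872 reads per library, and a tested gene of the group had between 150 and 1810 reads in a library (median 617.5). The mouse Pdk4 gene was at 9.5, 10.4 and 10.1 FPKM in Ad-Con and at 7.67, 7.4 and 7.38 FPKM in the libraries labelled Ad-PDK4, so that it fell by 0.42 on the log2 scale (limma, Benjamini-Hochberg adjusted p = 0.0011), opposite to the label. Whether reads of the plasmid insert were counted is not given in the sources used here, and an exchange of labels was not tested. All directions below are therefore those of the labels. Of the smooth muscle contractile markers, Acta2 was at 33.5 to 78.7 FPKM, whereas Myh11, Tagln, Cnn1, Des and Mylk lay below the filter, and 5 of 10 were tested. Among the tested contractile markers 1 was higher and 2 were lower, with log2 fold changes from -1.11 to 0.36. Among 8 fibroblast and mesenchymal markers 1 was higher and 5 were lower, with log2 fold changes from -1.28 to 0.83. Summed contractile markers were at 172 to 173 FPKM in Ad-Con and 135 to 145 FPKM in Ad-PDK4, and the fibroblast and mesenchymal markers at 1580 to 1700 and 854 to 950 FPKM. Of the 8 macrophage markers 2 were tested, with Cd68 lower (log2 fold change -1.74) and Cd14 higher (0.55), and they summed to 26.2 to 29.4 and 22.5 to 25.5 FPKM, with Ptprc, Tyrobp, C1qa and C1qb listed at 0. The 8 endothelial markers summed to 0.634 to 0.827 and 0.924 to 1.18 FPKM. The part of these shifts in the results below was not tested, and in bulk libraries fewer cells of a type and less RNA per cell cannot be told apart.

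The group stayed close to its Ad-Con level. Its median log2 fold change was 0.06 (quartiles -0.08 and 0.19) and its extremes were 0.59 for Mrps22 and -0.48 for Mrps6. Of the 77 tested genes 29.9% were called at an adjusted p below 0.05 (limma, Benjamini-Hochberg over all tested genes), against 42.7% of all tested genes. Without a filter beyond a mean FPKM above 0 these shares were 19.5% and 20.5%. The 16 higher genes stand beside 21.8% of all tested genes called higher, and the 7 lower genes beside 20.8% called lower. None passed the additional limit of a 2-fold change, which 6.63% of all tested genes passed, and none did so in any of 18 alternative analyses. The 95% interval of the fold change lay inside 2-fold in either direction for all 77, compared with 80.2% of all tested genes, and its median half-width was 0.18 on the log2 scale. An absolute log2 fold change below 0.25 was found for 54 of them (70.1%), and for 49.7% of all tested genes. Precision was similar, with a median coefficient of variation within groups of 6.37% for these genes and 7.14% for all. In 37 of the 77 the 3 libraries of one group lay wholly above or below the other 3, against 54.3% of all tested genes. Between 7.12 and 21.6 FPKM, the middle range of their levels, 15 of 39 of these genes were called, compared with 50.1% of 3817 tested genes of any kind in that range.

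**Figure D1:**
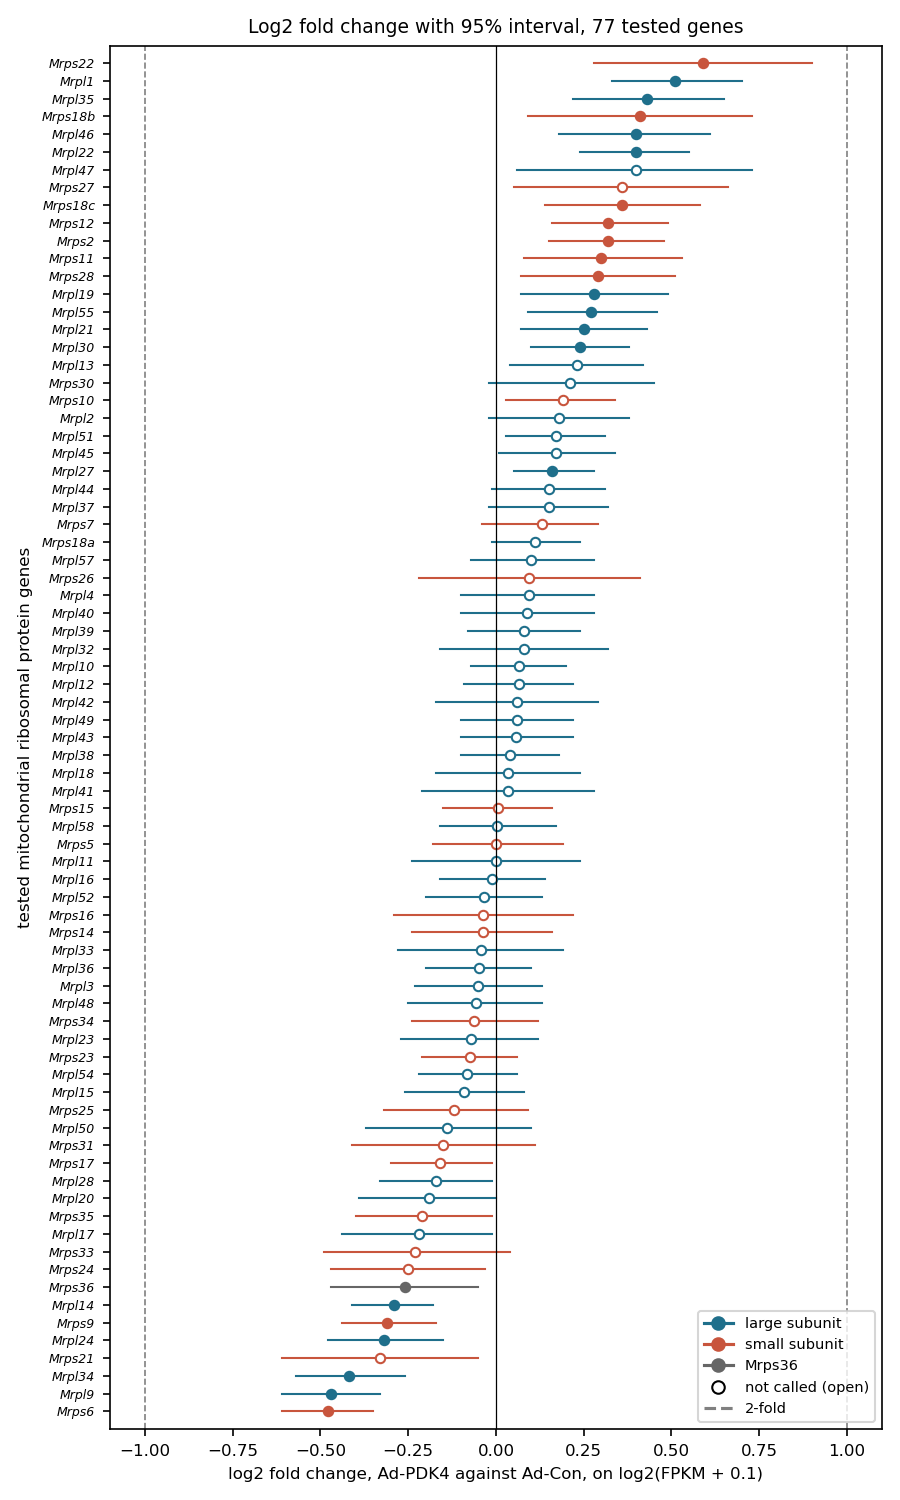
Log2 fold change of Ad-PDK4 against Ad-Con (x axis) for each of the 77 tested genes (y axis), with its 95% interval as a line. Filled points were called at an adjusted p below 0.05 (16 higher, 7 lower), open points were not, colours give the subunit, and all intervals lie inside the dashed lines at 2-fold.

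The count of higher against lower genes depended on how libraries were scaled. With the deposited scaling it was 16 against 7, after quantile normalization 9 against 12 and after upper-quartile scaling 9 against 14. Rescaling to TPM gave 23 against 6 (25.1% and 18.1% of all tested genes). The same without the mtDNA-encoded genes gave 13 against 8 (20.6% and 21.6% of all tested genes). The median of the group went with these from 0.10 under TPM to -0.0035 under quantile normalization, while the median of all tested genes went from 0.04 under TPM to -0.06 under upper-quartile scaling. Leaving out 1 library also mattered. The higher genes fell from 16 to 9 without Ad-Con replicate 2, to 10 without Ad-PDK4 replicate 1 and to 11 without Ad-Con replicate 1 or Ad-PDK4 replicate 3, and were 15 without either of the others. Lower genes numbered between 6 and 10 in these fits. Calls over all tested genes also became fewer without 1 library. Their share was 33.8% to 40.2% in these fits, against 42.7% with all libraries.

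A set of 14 of the 23 called genes, 8 higher and 6 lower, was called in the same direction in every alternative that tested them, including all 6 fits without 1 library. Genes with a mean under 5 FPKM were not tested in the alternative with that higher filter. In all 23 called genes the groups did not overlap, and none changed sign in any alternative. The calls rest on the same values, so this separation adds no support to them. Among all tested genes, called or not, 54.3% did not overlap. How many of all called genes kept their call in every alternative, or did not overlap, is not given here.

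The largest rise was that of Mrps22 (ENSMUSG00000032459, chromosome 9, 98588730 to 98601660, minus strand), a small subunit protein without a bacterial counterpart. It had 2.84, 2.14 and 2.76 FPKM in Ad-Con and 4.35, 3.48 and 3.98 FPKM in Ad-PDK4, from 150 to 351 reads a library, and its log2 fold change was 0.59 (SE 0.13, limma, Benjamini-Hochberg adjusted p = 0.0088). Every Ad-PDK4 library was above every Ad-Con library, although Mrps22 was among the 5 lowest genes of the group. Mrpl1 (ENSMUSG00000029486, chromosome 5, 96209493 to 96266727), a protein of the mobile stalk beside the tRNA exit site, had 3.36, 3.33 and 3.58 FPKM in Ad-Con and 4.84, 4.7 and 5.28 FPKM in Ad-PDK4 (log2 fold change 0.51, SE 0.08, limma adjusted p = 0.0015). Mrpl35, a large subunit protein kept from bacteria, had 5.19, 5.27 and 4.81 FPKM in Ad-Con and 7.22, 6.1 and 7.49 FPKM in Ad-PDK4 (log2 fold change 0.43, SE 0.09, limma adjusted p = 0.0066). Both genes were at a low level, and for both the replicates of a group differed by less than the group means did.

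Among genes at a middle level, Mrpl22, which lines the exit tunnel of the nascent chain, had 18.5, 16.7 and 18.7 FPKM in Ad-Con and 22.3, 24.2 and 24.5 FPKM in Ad-PDK4 (log2 fold change 0.40, limma adjusted p = 0.0021). Of its sequence, 26.9% of 75-base stretches also occur in other genes. Mrps2, a small subunit protein kept from bacteria, had 14.5, 15.1 and 12.8 FPKM in Ad-Con and 17.4, 18.1 and 17.1 FPKM in Ad-PDK4 (log2 fold change 0.32, limma adjusted p = 0.0091). Mrps12, a protein of the decoding centre, had 23.2, 25.8 and 25.8 FPKM in Ad-Con and 30.5, 33.7 and 29.7 FPKM in Ad-PDK4 (log2 fold change 0.32, limma adjusted p = 0.0069). For Mrpl22, Mrps2 and Mrps12 the group means differed by more than the replicates of either group did. Mrpl46, a large subunit protein without a bacterial counterpart, had 8.78, 8.41 and 9.08 FPKM in Ad-Con and 11, 10.5 and 13.4 FPKM in Ad-PDK4 (log2 fold change 0.40, limma adjusted p = 0.011). Mrps18c, the small subunit protein related to bacterial S18, had 9.45, 9.53 and 9.74 FPKM in Ad-Con and 12.1, 10.9 and 14.2 FPKM in Ad-PDK4 (log2 fold change 0.36, limma adjusted p = 0.017). For both, the Ad-PDK4 libraries were more scattered than the Ad-Con libraries, and replicate 3 was the highest.

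The largest fall was that of Mrps6 (ENSMUSG00000039680, chromosome 16, 92058270 to 92112227, plus strand), a small subunit protein kept from bacteria. It had 21.4, 19.8 and 20.6 FPKM in Ad-Con and 14.6, 14.3 and 15.3 FPKM in Ad-PDK4, so that it fell by 0.48 on the log2 scale (SE 0.06, limma, Benjamini-Hochberg adjusted p = 3.1e-04). Of its 75-base stretches 30.1% also belong to the overlapping genes Slc5a3 and Gm49711. How reads in such stretches were counted is not given in the sources used here. Mrpl9 (ENSMUSG00000028140, chromosome 3, 94443318 to 94451130), whose bacterial relative reaches out from the large subunit, had 20.9, 20.2 and 21.7 FPKM in Ad-Con and 15.7, 15.5 and 14.2 FPKM in Ad-PDK4 (log2 fold change -0.47, limma adjusted p = 5.7e-04). Mrpl34 (ENSMUSG00000034880, chromosome 8, 71464959 to 71465747) had the highest level of the group, with 74.2, 73.7 and 77.2 FPKM in Ad-Con and 54.7, 62.2 and 52.4 FPKM in Ad-PDK4 (log2 fold change -0.42, limma adjusted p = 0.0021). The groups were wide apart in all 3 genes, with ratios of mean FPKM of 0.715, 0.721 and 0.752.

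Smaller falls were found for 3 further genes kept from bacteria. Mrpl24, a protein near the end of the exit tunnel, had 23.6, 24.4 and 22.8 FPKM in Ad-Con and 17.5, 18.6 and 20.7 FPKM in Ad-PDK4 (log2 fold change -0.32, limma adjusted p = 0.0084), with 34.8% of its 75-base stretches shared with other genes. Mrps9, whose tail reaches towards the tRNA in the bacterial ribosome, had 8.43, 8.83 and 9.01 FPKM in Ad-Con and 7.11, 7.12 and 6.91 FPKM in Ad-PDK4 (log2 fold change -0.31, limma adjusted p = 0.0039). Mrpl14, a protein of the subunit interface, had 53.4, 53.2 and 52 FPKM in Ad-Con and 43.6, 44.7 and 41.1 FPKM in Ad-PDK4 (log2 fold change -0.29, limma adjusted p = 0.0023). The replicates of Mrps9 and Mrpl14 were close together in both groups, and their small changes lay outside that spread.

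**Figure D2:**
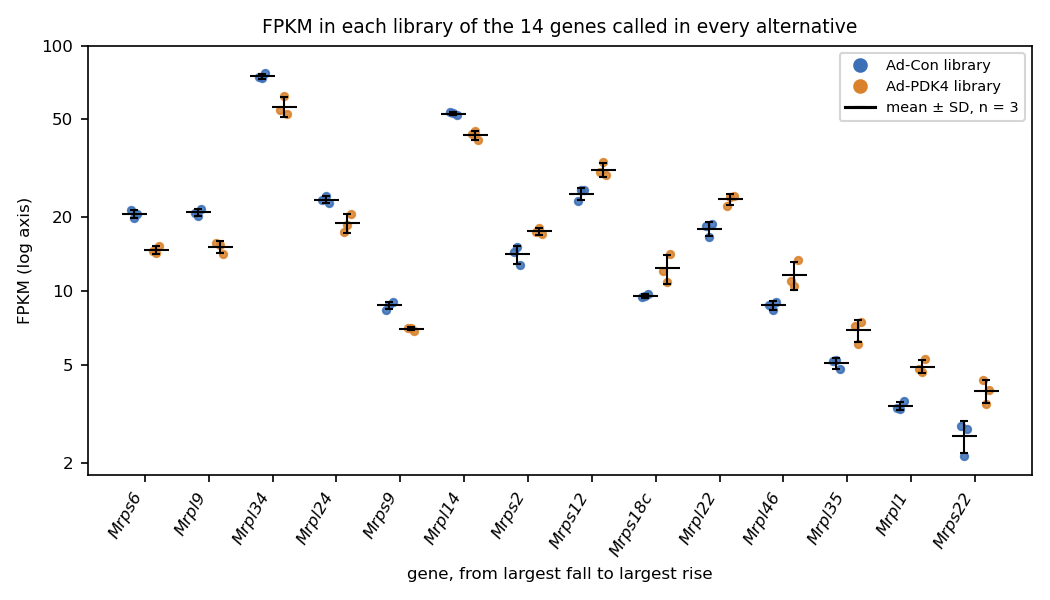
FPKM on a log axis in each Ad-Con and Ad-PDK4 library for the 14 genes called in every alternative that tested them, ordered along the x axis from the largest fall (Mrps6) to the largest rise (Mrps22), with mean ± SD (n = 3) as black bars. The 6 falling genes run from Mrps9 near 8 FPKM to Mrpl34 above 50 FPKM, the 8 rising genes from Mrps22 near 3 FPKM to Mrps12 near 30 FPKM, and in none do the groups overlap.

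The other 9 called genes each lost the call in at least 1 of the 6 fits without 1 library. Mrps18b had 8.21, 6.03 and 8.56 FPKM in Ad-Con and 9.08, 10.3 and 10.6 FPKM in Ad-PDK4 (log2 fold change 0.41, limma adjusted p = 0.045), and 60.5% of its 75-base stretches occur in other genes. Mrps11, a protein of the small subunit platform, had 7.99, 6.84 and 6.5 FPKM in Ad-Con and 8.17, 9.63 and 8.57 FPKM in Ad-PDK4 (0.30, limma adjusted p = 0.036). Mrps28 had 15.7, 15.4 and 13.2 FPKM in Ad-Con and 17, 20.4 and 16.9 FPKM in Ad-PDK4 (0.29, limma adjusted p = 0.043). In these 3 the highest Ad-Con library lay just below the lowest Ad-PDK4 library. Mrpl19 had 4.01, 3.58 and 3.51 FPKM in Ad-Con and 4.71, 4.15 and 4.69 FPKM in Ad-PDK4 (0.28, limma adjusted p = 0.037), with 39.5% of its 75-base stretches shared. Mrps36 had 14.5, 14.7 and 16.6 FPKM in Ad-Con and 13.3, 11.3 and 13.7 FPKM in Ad-PDK4 (-0.26, limma adjusted p = 0.0498), with 25.2% shared. Mrpl55, Mrpl21, Mrpl30 and Mrpl27, named after their values were seen, had log2 fold changes of 0.27, 0.25, 0.24 and 0.16. Without Ad-Con replicate 1, 7 of the 9 lost the call (log2 fold changes of 0.47 for Mrps18b, 0.33 for Mrps28, 0.23 for Mrpl30, 0.20 for Mrpl55 and Mrpl21, 0.16 for Mrpl27 and -0.30 for Mrps36). Without Ad-Con replicate 2, 8 lost it (0.25 for Mrps18b and Mrpl21, 0.32 for Mrps28, 0.28 for Mrps11 and Mrpl55, 0.26 for Mrpl19, 0.14 for Mrpl27 and -0.28 for Mrps36). The value of Mrps18b moved most among the 9. Without Ad-Con replicate 3, 5 lost it (0.21 for Mrps28, 0.24 for Mrps11 and Mrpl19, 0.19 for Mrpl27 and -0.20 for Mrps36). Without Ad-PDK4 replicate 1, 7 lost it (0.48 for Mrps18b, 0.33 for Mrps28, 0.30 for Mrpl55, 0.25 for Mrpl19, 0.21 for Mrpl21, 0.16 for Mrpl27 and -0.29 for Mrps36). Fits with fewer libraries have fewer degrees of freedom, and no call was lost through a change of direction. Some calls were lost with a larger fold change than with all libraries, as in Mrps28 at 0.33, and others with a smaller one. Without Ad-PDK4 replicate 2, 5 lost it (0.38 for Mrps18b, 0.24 for Mrps11, 0.23 for Mrpl55, 0.20 for Mrps28 and -0.17 for Mrps36). Without Ad-PDK4 replicate 3, 5 lost it (0.36 for Mrps18b, 0.32 for Mrps11, 0.25 for Mrpl19, 0.23 for Mrpl21 and 0.14 for Mrpl27).

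The 54 genes not called included some with fold changes as large as those called. Mrpl47 (1.8, 2.06 and 2.57 FPKM against 2.87, 2.53 and 3.1 FPKM) had a log2 fold change of 0.40 and an adjusted p of 0.059 (limma), and its groups overlapped. Without Ad-Con replicate 3 it was 0.53 and passed the threshold (limma adjusted p = 0.022). Mrps27 at 0.36 and Mrps21 at -0.33, named after their values were seen, had adjusted p-values of 0.059 and 0.062 (limma). In Mrps21, Ad-Con replicate 1 was at 43.5 FPKM, inside the Ad-PDK4 values of 44, 42.6 and 39.6 FPKM, while the other Ad-Con libraries were at 60.7 and 56 FPKM. Without that library its log2 fold change was -0.47 (limma adjusted p = 0.0028). Between 0 and 5 of the genes not called gained a call in each fit without 1 library.

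Both subunits held rises and falls. Of the 50 tested large subunit genes 9 were higher and 4 lower (26.0% called), with a median log2 fold change of 0.06. Of the 26 small subunit genes 7 were higher and 2 lower (34.6% called), with a median of -0.02. Grouped by origin, 13 of 46 genes with a bacterial counterpart were higher and 6 lower (41.3% called). Of 30 tested genes specific to mitochondria 3 were higher and none lower (10.0% called, with Mrps22, Mrps18b and Mrpl46). Of all tested genes 42.7% were called, so the share of the genes with a bacterial counterpart lay near that of all genes. Neither split was tested. The 3 paralogues of bacterial S18, which occupy different places in the mitochondrial ribosome, gave different values. In the grouping by origin only Mrps18c was counted as having a bacterial counterpart. Mrps18a and Mrps18b were counted as specific to mitochondria despite this relation, so the grouping is not strictly one of descent. Mrps18b and Mrps18c were called higher, as above, and Mrps18a, which sits in the large subunit, had 12.3, 12.8 and 12 FPKM in Ad-Con and 13.1, 13.3 and 13.7 FPKM in Ad-PDK4 (0.11, limma adjusted p = 0.12). The differences between the paralogues were not tested.

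Levels within the group spanned 26.4-fold, with a median of 13.7 FPKM compared with 6.65 FPKM for all tested genes. After Mrpl34 (mean of all libraries 65.7 FPKM) the highest were Mrpl2 at 55.3, Mrpl27 at 49.7, Mrpl54 at 49.3 and Mrpl14 at 48 FPKM. Mrpl2, a protein near the catalytic centre, had 48.2, 51.3 and 56 FPKM in Ad-Con and 56.6, 66.2 and 53.7 FPKM in Ad-PDK4 (log2 fold change 0.18, limma adjusted p = 0.14). Mrpl54 had 51.3, 53.6 and 47.3 FPKM in Ad-Con and 45.7, 49.4 and 48.6 FPKM in Ad-PDK4 (log2 fold change -0.08, limma adjusted p = 0.31). The library values of Mrpl2, Mrpl27 and Mrpl54 overlapped, so their order was not resolved. At the other end were Mrpl47 at 2.49, Mrps25 at 2.71, Mrps30 at 2.89, Mrps35 at 3.11 and Mrps22 at 3.26 FPKM. Mrps25 (log2 fold change -0.12, limma adjusted p = 0.33), Mrps30 (0.21, adjusted p = 0.13) and Mrps35 (-0.21, adjusted p = 0.083) were not called. In 73 of the 78 genes the deposited gene length equalled the length of all annotated exons together, and over the group it ran from 607 bases for Mrpl34 to 8631 bases for Mrps35. For Mrpl13 it was 7936 bases, whereas the annotated transcript of the gene used here was 1223 bases, so levels compared between genes depend on these lengths. Fold changes within a gene do not.

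Mrpl53 (ENSMUSG00000030037, chromosome 6, 83109040 to 83109939) was the only gene of the group below the filter and was listed at 0 in all 6 libraries. All of its 75-base stretches (100%) occur in other annotated genes and 88% of its exons overlap other genes, among them Gm42688 on the same strand. How reads in overlapping genes were counted is not given in the sources used here, so the value of 0 does not show that the gene was silent. In the group as a whole 32 genes shared no 75-base stretch and no exon with another gene. Restricted to the 61 tested genes with at most 20% shared sequence, 11 were higher and 4 lower, with a median log2 fold change of 0.04. Without this restriction, 21.8% of all tested genes were higher and 20.8% lower.

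The summed level of the group overlapped between Ad-Con and Ad-PDK4. Its summed FPKM was 1297, 1352 and 1359 in Ad-Con and 1322, 1349 and 1322 in Ad-PDK4, which is 1336 ± 34 and 1331 ± 15.6 (mean ± SD, n = 3). The ratio of summed large to small subunit FPKM was 2.37, 2.37 and 2.39 in Ad-Con and 2.38, 2.4 and 2.5 in Ad-PDK4. The sum of the 13 mRNAs that this ribosome translates was lower in every Ad-PDK4 library than in any Ad-Con library. It was 19880, 19380 and 20510 FPKM in Ad-Con and 9608, 7976 and 10940 FPKM in Ad-PDK4. The ratio of mtDNA-encoded to mitochondrial ribosomal protein mRNA was therefore 15.3, 14.3 and 15.1 in Ad-Con and 7.27, 5.91 and 8.27 in Ad-PDK4 (14.9 ± 0.529 against 7.15 ± 1.18), and the groups did not overlap.

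**Figure D3:**
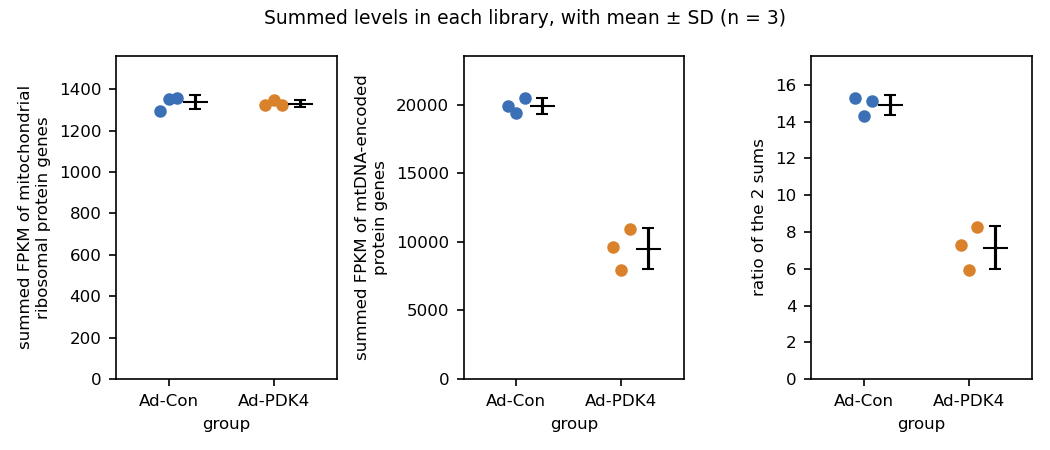
Summed FPKM of the mitochondrial ribosomal protein genes, summed FPKM of the mtDNA-encoded protein genes and the ratio of the latter to the former (y axes) in each Ad-Con and Ad-PDK4 library, with mean ± SD (n = 3) beside the points. The first sum lies near 1330 in both groups, whereas the second and the ratio are lower in every Ad-PDK4 library than in any Ad-Con library.

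Of the rRNA genes of this ribosome 1 was lower. The 16S rRNA gene of the large subunit, mt-Rnr2, had 524, 532 and 599 FPKM in Ad-Con and 234, 208 and 294 FPKM in Ad-PDK4 (log2 fold change -1.18, limma, Benjamini-Hochberg adjusted p = 4.2e-04). The 12S rRNA gene of the small subunit, mt-Rnr1, had 331, 349 and 397 FPKM in Ad-Con and 282, 216 and 319 FPKM in Ad-PDK4 (-0.41, limma adjusted p = 0.066). In both genes the groups did not overlap, and only mt-Rnr2 was called. How library preparation treated rRNA was not examined, so these values need not give the rRNA level in the cells. Of the 13 mtDNA-encoded protein genes 11 were lower and none higher (84.6% called, against 42.7% of all tested genes), with a median log2 fold change of -1.2.

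Other proteins and factors of the pathway showed a mixed picture. The 5 ribosomal proteins of mitochondria with other symbols (Dap3, Chchd1, Aurkaip1, Ptcd3 and Gadd45gip1) had log2 fold changes of -0.17 for Aurkaip1 to 0.13 for Gadd45gip1, and none was called. Without Ad-PDK4 replicate 2, Aurkaip1 was at -0.26 and passed the threshold (limma adjusted p = 0.0075). Of 14 tested translation factors 2 were higher and 3 lower (35.7% called, against 42.7% of all tested genes). Guf1, a GTPase related to bacterial elongation factor 4, had 2.97, 2.58 and 2.98 FPKM in Ad-Con and 1.93, 1.7 and 2.11 FPKM in Ad-PDK4 (-0.55, limma adjusted p = 0.0069). Of 26 tested genes for ribosome assembly and rRNA modification 5 were higher and 3 lower (30.8% called, also below that share). Mrm3, a methyltransferase that modifies the 16S rRNA, had 2.21, 4.03 and 3.51 FPKM in Ad-Con and 7.07, 5.26 and 5.55 FPKM in Ad-PDK4 (0.89, limma adjusted p = 0.020). It was no longer called without Ad-PDK4 replicate 1 (0.76, limma adjusted p = 0.058) or replicate 3 (0.93, limma adjusted p = 0.052). Both genes were at a low level, and the libraries of each group stayed apart.

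Among 20 genes that charge mitochondrial tRNAs 2 were higher and 4 lower (30.0% called, against 42.7% of all tested genes). Ears2, the glutamyl-tRNA synthetase, had 1.17, 1.03 and 0.867 FPKM in Ad-Con and 2.11, 2.01 and 2.03 FPKM in Ad-PDK4 (0.95, limma adjusted p = 0.0013). Sars2, the seryl-tRNA synthetase, had 2.21, 2.58 and 1.91 FPKM in Ad-Con and 3.4, 3.4 and 3.14 FPKM in Ad-PDK4 (0.56, limma adjusted p = 0.0072). These were the called rises of the list. Wars2, the tryptophanyl-tRNA synthetase, fell and had 2.82, 2.98 and 3.19 FPKM in Ad-Con and 1.89, 2.08 and 2.19 FPKM in Ad-PDK4 (-0.53, limma adjusted p = 0.0044). Ears2, Sars2 and Wars2 were called in every fit without 1 library.

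Set beside other multi-subunit machines, 28 of 86 tested cytosolic ribosomal protein genes were lower and 3 higher (36.0% called, median log2 fold change -0.15). Of 79 tested nuclear genes for OXPHOS subunits 32 were lower and 2 higher (43.0% called, median -0.16). For the mitochondrial ribosomal proteins the counts were 7 lower and 16 higher (29.9% called), with a median of 0.06. Over all tested genes 42.7% were called, 20.8% lower and 21.8% higher. The differences between these groups were not tested. The symbols that chose the cytosolic group also took in loci named like pseudogenes.

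**Figure D4:**
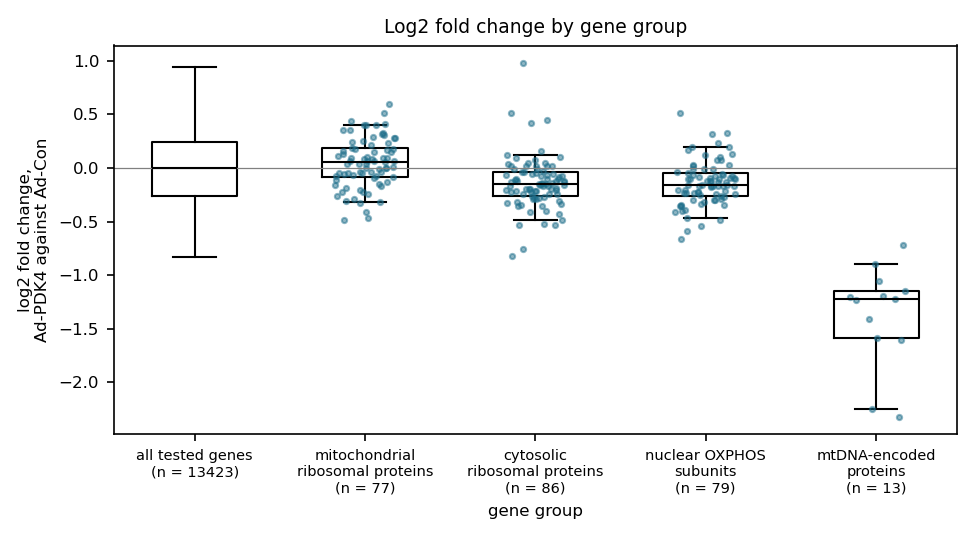
Log2 fold change of Ad-PDK4 against Ad-Con (y axis) for all 13423 tested genes and 4 gene groups (x axis), with medians and quartiles as boxes, whiskers from the 5th to the 95th percentile and single genes as points, except for all tested genes. The median is near 0 for the mitochondrial ribosomal proteins, -0.15 and -0.16 for the cytosolic ribosomal proteins and nuclear OXPHOS subunits, and -1.2 for the mtDNA-encoded proteins.

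Many of the genes share a start region with another gene. In 33 of the 77 tested genes (42.9%) a protein-coding neighbour on the opposite strand started within 1000 bases, compared with 16.8% of 11499 tested protein-coding genes. The 78 genes lay on 17 chromosomes, with 11 on chromosome 11. In 30 such pairs both genes were tested and in 7 both were called, and in all 7 the genes moved in the same direction. Over all pairs of this kind in the table the direction was the same in 69.5% of 164 pairs with both genes called. Without regard to calls the sign was the same in 43.3% of the 30 pairs and in 55.9% of all pairs. The neighbours named here were chosen after their values were seen.

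Mrpl30 rose with Mitd1, a gene for a protein of the last step of cell division, whose log2 fold change was 1.62 (limma adjusted p = 8.6e-06), against 0.24 for Mrpl30 itself. Mrps12 rose with Sars2 (0.32 and 0.56), so that a ribosomal protein and a tRNA synthetase of the same organelle share a start region. Mrpl46 and Mrps11 (0.40 and 0.30) are each other's neighbour and belong to different subunits. Mrps18c rose with the DNA helicase gene Helq (0.43), Mrps18b with Ppp1r10 (0.30), which encodes a regulatory subunit of protein phosphatase 1, and Mrpl21 (0.25) with the helicase gene Ighmbp2 (0.63). Mrpl14 (-0.29) fell with Tmem63b (-0.41), which encodes an ion channel. Of these, Mrpl30, Mrps11, Mrps18b and Mrpl21 are among the 9 genes that lost their call without single libraries. The annotated ends of Mrpl14, Mrpl21 and Mrpl46 overlap their neighbours (distances between starts of -583, -116 and -412 bases, where the minus sign marks overlap), and without strand information reads there cannot be assigned to one gene. In the other 4 pairs the starts were 29 to 172 bases apart. Pairs that went apart also occurred, such as Mrpl51 (0.17, not called) and the condensin gene Ncapd2 (-0.87).

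**Figure D5:**
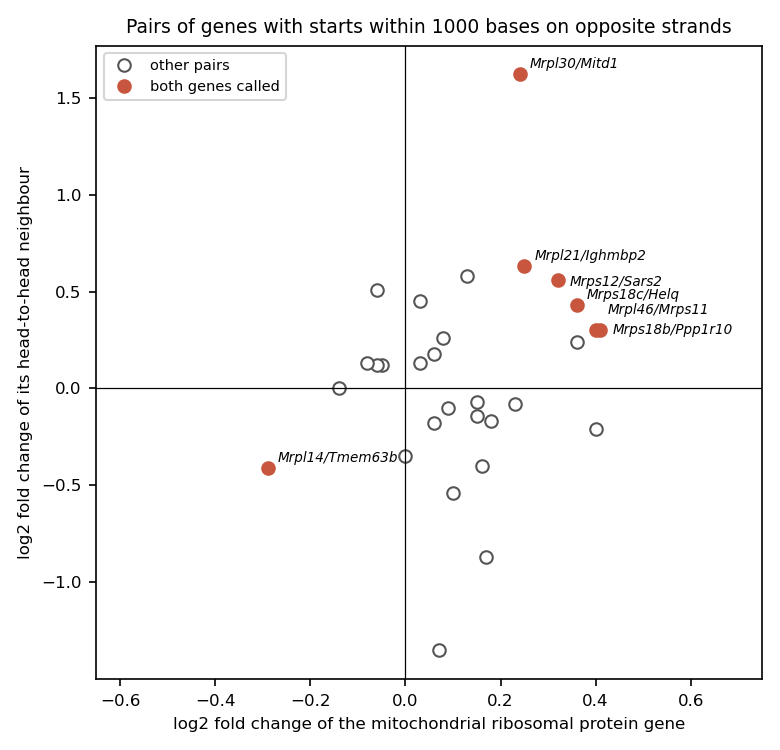
Log2 fold change of each mitochondrial ribosomal protein gene (x axis) and of its neighbour on the opposite strand (y axis) for the 30 pairs with starts within 1000 bases and both genes tested. The 7 filled pairs, in which both genes were called, lie in the quadrants of equal sign, and the open pairs lie in quadrants of equal and of opposite sign.

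Start regions are shown for 6 of the called genes, because several of them are shared with a neighbour that moved the same way. RefSeq windows (GRCm38.p6, 250 bases before to 50 after the start) were found for 69 of the 78 genes, 75 windows in all. They were searched on both strands for motifs of factors known for nuclear genes of mitochondria and for common promoter elements. GCATGCGC, the core of the NRF1 motif, was in 10.7% of the 75 windows and in 2.71% of all 32851 windows. CCGGAAGT, bound by ETS factors such as GABP, was in 16.0% and 3.89%, and AAGATGGC, bound by YY1, in 16.0% and 2.75%. The GC box GGGCGG was in 52.0% and 35.7%, the E-box CACGTG in 9.33% and 7.15%, and the cAMP response element TGACGTCA in 2.67% and 1.79%. These shares describe the letters only, and no test was made. The YY1 letters were in 3 of 14 windows of higher genes and in 0 of 7 windows of lower genes, and so were the ETS letters. The NRF1 letters were in 2 and 1 windows, the GC box in 8 and 4 (57.1% of each) and the E-box in 1 and 0. The cAMP response element was in none of either. These windows are too few to set the directions apart. The sequences below are the 250 bases before the start, 5′ to 3′ on the strand of the gene, with these motifs in capitals. They come from chr9:98601680-98601929 (minus strand) for Mrps22, chr7:78782881-78783130 (plus) for Mrps11, chr7:28741822-28742071 (minus) for Mrps12, chr5:100798509-100798758 (plus) for Mrps18c, chr3:94443086-94443335 (plus) for Mrpl9 and chr16:92058086-92058335 (plus) for Mrps6.
Mrps22: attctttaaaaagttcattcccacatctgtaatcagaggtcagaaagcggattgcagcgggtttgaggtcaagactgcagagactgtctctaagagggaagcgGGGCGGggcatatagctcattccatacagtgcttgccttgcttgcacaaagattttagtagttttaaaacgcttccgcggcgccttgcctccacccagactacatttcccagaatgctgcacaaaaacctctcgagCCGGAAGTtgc
Mrps11: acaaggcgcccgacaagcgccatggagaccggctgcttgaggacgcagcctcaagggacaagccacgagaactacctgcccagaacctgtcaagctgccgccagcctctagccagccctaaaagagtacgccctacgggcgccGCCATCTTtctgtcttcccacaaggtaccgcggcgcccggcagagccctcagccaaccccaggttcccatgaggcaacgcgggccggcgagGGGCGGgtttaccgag
Mrps12: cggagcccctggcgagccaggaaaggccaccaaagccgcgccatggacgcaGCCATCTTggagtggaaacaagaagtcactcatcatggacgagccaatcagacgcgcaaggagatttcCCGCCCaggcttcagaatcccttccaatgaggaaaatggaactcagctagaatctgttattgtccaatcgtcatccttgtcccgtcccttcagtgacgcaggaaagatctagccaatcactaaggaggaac
Mrps18c: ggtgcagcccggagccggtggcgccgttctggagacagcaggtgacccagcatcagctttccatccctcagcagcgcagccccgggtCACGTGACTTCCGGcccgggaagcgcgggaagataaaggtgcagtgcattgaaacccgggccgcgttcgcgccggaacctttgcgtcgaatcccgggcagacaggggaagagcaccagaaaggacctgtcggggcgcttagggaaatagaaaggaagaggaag
Mrpl9: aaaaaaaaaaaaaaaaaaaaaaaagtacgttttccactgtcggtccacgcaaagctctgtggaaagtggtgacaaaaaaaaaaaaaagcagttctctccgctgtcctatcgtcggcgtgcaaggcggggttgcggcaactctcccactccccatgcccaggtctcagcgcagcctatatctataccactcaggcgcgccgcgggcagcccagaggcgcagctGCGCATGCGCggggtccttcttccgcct
Mrps6: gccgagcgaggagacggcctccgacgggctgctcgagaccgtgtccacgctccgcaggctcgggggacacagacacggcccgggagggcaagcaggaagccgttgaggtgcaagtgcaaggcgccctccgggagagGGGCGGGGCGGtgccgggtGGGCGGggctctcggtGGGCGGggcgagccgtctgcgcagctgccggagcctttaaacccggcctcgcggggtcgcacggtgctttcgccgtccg

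In the Mrps22 region the capitals mark a GC box and, next to the start, the ETS letters. Mrps11 and Mrps12 both hold the YY1 letters on the opposite strand, where they read as GCCATCTT, beside a GC box. The window of Mrps11 runs into the start of Mrpl46 on the other strand. In Mrps18c an E-box is followed at once by the ETS letters on the opposite strand. Among the falling genes, Mrpl9 holds 2 overlapping NRF1 matches near the start and Mrps6 holds 4 GC boxes.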

How the data were processed

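RNA-seq was measured in 6 libraries, 3 Ad-Con and 3 Ad-PDK4, grouped by their treatment labels. The deposited table holds FPKM per gene and library, computed by the authors, with gene lengths. The submitters' processing notes name CASAVA 1.8, fastp, HISAT2 2.0.5, featureCounts 1.5.0-p3 and DESeq2 1.20.0. Strand settings are not given in the sources used here, and the labels and the methods name different library kits. The notes name GRCm39, but the coordinates are those of GRCm38 and are given so. FPKM times gene length gave whole reads for 100% of values (tolerance 0.01 reads).

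FPKM were analysed as log2(FPKM + 0.1) with limma 3.58.1 (R 4.3.3, trend and robust moderation), without covariates, over the 13423 genes that averaged 0.5 FPKM or more, and p-values were Benjamini-Hochberg adjusted over all of them. Calls are at an adjusted p below 0.05. Fold changes on this scale understate those of low genes. Genes were named by rule: the 12 largest rises and falls among called genes, the 5 highest and lowest levels, genes below the filter and the Mrps18 paralogues. In the pathway lists, called genes with an absolute log2 fold change of at least 0.5 were named, or else the largest rise and fall. A gene that this rule selects is not reported here. The rule for the ribosomal protein genes uses annotation only, but this group and the lists were chosen for study with earlier results of these data known. Shared sequence was measured as 75-base stretches of annotated transcripts found in other genes. The 18 alternatives changed the pseudocount, filter, scaling, moderation, block, test or libraries used.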

Additional observations from a re-analysis of the deposited data

How the results depend on the processing

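The number of higher genes was 16 with the deposited scaling (21.8% of all tested genes) and 9 without a filter beyond a mean FPKM above 0 (10.6%). It was 9 after quantile normalization (18.9%) and 9 after upper-quartile scaling, where the share of all tested genes was also below 21.8%. The number of higher genes ranged from 9 to 15 when 1 library was left out, and the share of all tested genes from 17.3% to 20.1%. The 7 lower genes became 12 after quantile normalization and 14 after upper-quartile scaling, and 6 to 10 without 1 library. The median log2 fold change of the group, 0.06, was 0.098 under TPM scaling, -0.0035 after quantile normalization and 0.0022 after upper-quartile scaling, and 0.02 to 0.083 without 1 library. Scaling moves all genes together, and the median of the group minus that of all tested genes was 0.06 with the deposited scaling, 0.061 under TPM, 0.032 after quantile normalization and 0.059 after upper-quartile scaling. On the recovered reads limma-voom called 19 higher and 9 lower (24.0% and 23.4% of all tested genes). Counts under the other alternatives stayed within 1.5 times. Of the values of single named genes, 582 kept their direction and side of the threshold, 61 lost the call and 10 gained one, and 0 of the called genes changed sign. Libraries of the 2 groups with the same replicate number did not deviate together (correlations of -0.046, -0.0311 and -0.00129), so the numbers pair nothing. With the replicate number as a block, 17 genes were higher and 8 lower (20.6% and 19.6% of all tested genes). Mrm3 was not called in that fit (0.89, limma adjusted p = 0.070).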
